A study of Mus musculus with 20 samples.

Results

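The Schlafen gene family was followed through 20 RNA-seq libraries of mouse bone-marrow stem and progenitor cells. Its members were taken by name: 7 genes, Slfn1, Slfn2, Slfn3, Slfn4, Slfn5, Slfn8 and Slfn9, of 45706 gene identifiers measured. All 7 were found, and all 7 passed the filter on low values that left 17160 genes in the tests. The libraries came from 8-week-old mice on the C57BL/6 background, with Hopx intact (Hopx-wildtype, WT, 11 libraries) or knocked out (Hopx-knockout, KO, 9 libraries). Haematopoietic stem cells with long-term capacity (LT-HSC), the rarely dividing cells that sustain blood formation, were sorted from WT (n = 4) and KO (n = 3) marrow. Type 2 multipotent progenitors (MPP2), which lean toward platelet and red-cell output, were sorted from WT (n = 3) and KO (n = 3) marrow. Type 3 multipotent progenitors (MPP3), which lean toward granulocytes and macrophages, were sorted from WT (n = 4) and KO (n = 3) marrow. The labels name no animal, no knockout allele and no Cre driver. Every p-value therefore measures the spread between these libraries, which may be technical, and libraries of different populations may share an animal.

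Schlafen proteins take their name from the German word for sleep, because the first of them slowed the growth of T cells when overproduced. The family has short members (Slfn1 and Slfn2), members of intermediate length (Slfn3 and Slfn4) and long members that carry a helicase-like domain (Slfn5, Slfn8 and Slfn9). Many Schlafen genes are induced by interferon, and loss of Slfn2 function in mice is known to leave T cells and monocytes unable to stay at rest.

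The family sits in 1 cluster on chromosome 11. In the GENCODE M21 annotation (GRCm38) the cluster spans 82951349 to 83286726, a stretch of 335.4 kb with 9 genes. The 7 members are protein-coding, and the cluster also holds Slfn10-ps, a transcribed pseudogene, and Slfn14. Slfn2 occupies 83065112 to 83070678 on the plus strand and has the shortest exons of the family (1664 bases in all). Slfn5 occupies 82951349 to 82964840 on the plus strand and has the longest (6326 bases). Of the exon bases of Slfn5, 559 overlap Slfn5os, a gene on the opposite strand.

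**Figure D1:**
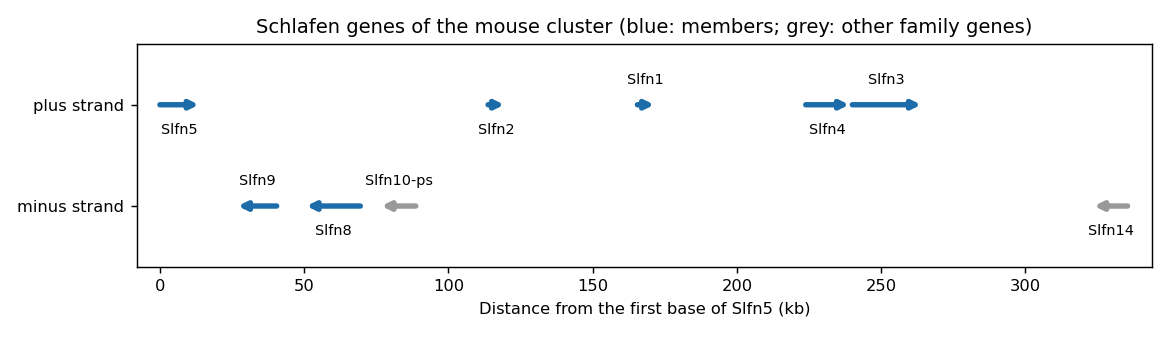
Map of the Schlafen cluster, with distance from the first base of Slfn5 in kb on the horizontal axis and the strand on the vertical axis; each arrow is a gene and points in the direction of transcription. The 7 members (blue) lie with Slfn10-ps and Slfn14 (grey) within 335.4 kb, and Slfn8 and Slfn9 are neighbours on the minus strand.

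The members resemble each other in sequence, which bears on how their reads could be assigned. In Slfn1, 0.606% of all 50-base stretches of the transcripts also occurred in another gene. The share was 4.27% in Slfn2, 11.1% in Slfn5, 11.3% in Slfn4, 11.9% in Slfn9, 14.6% in Slfn8 and 16% in Slfn3. Slfn8 and Slfn9 each shared most with the pseudogene Slfn10-ps, and Slfn3 and Slfn4 with each other. Slfn5 shared most with Slfn5os, the overlapping gene on the opposite strand (7.38%), and not with a relative. Slfn1 and Slfn2 thus had the smallest shares in all, and values of the others carry that uncertainty.

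Promoter sequences from RefSeq (GRCm38.p6) were found for all 7 members, and are shown for the genes whose levels separated the populations most and for a closely related pair. Capitals mark the core of the interferon-stimulated response element, the site through which type I interferon acts on its target genes, searched on both strands as GAAA, 2 bases of any kind and GAAA again (TTTC, 2 bases and TTTC on the other strand). Each sequence runs 5′ to 3′ on the strand of the gene and ends at or before the base ahead of the RefSeq start. In Slfn5 this start lies downstream of the GENCODE start, so the printed sequence falls inside the gene span given above. The Slfn5 sequence is shorter because an annotated exon begins after it.
Slfn2, chr11:83064912-83065111, plus strand: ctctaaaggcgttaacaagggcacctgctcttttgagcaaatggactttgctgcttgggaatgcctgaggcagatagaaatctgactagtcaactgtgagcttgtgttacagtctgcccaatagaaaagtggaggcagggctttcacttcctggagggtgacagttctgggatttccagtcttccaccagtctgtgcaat
Slfn5, chr11:82951902-82951984, plus strand: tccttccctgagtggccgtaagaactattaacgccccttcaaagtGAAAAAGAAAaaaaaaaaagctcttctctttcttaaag
Slfn8, chr11:83020811-83021010, minus strand: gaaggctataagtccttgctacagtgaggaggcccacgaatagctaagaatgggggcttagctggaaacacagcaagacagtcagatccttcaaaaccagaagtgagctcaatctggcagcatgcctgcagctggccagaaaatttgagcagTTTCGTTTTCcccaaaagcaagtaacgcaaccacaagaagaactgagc
Slfn9, chr11:82991831-82992030, minus strand: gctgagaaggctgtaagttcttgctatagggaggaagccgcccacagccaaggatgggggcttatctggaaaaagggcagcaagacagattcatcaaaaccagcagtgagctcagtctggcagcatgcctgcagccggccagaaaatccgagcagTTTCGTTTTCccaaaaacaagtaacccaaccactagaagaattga

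The letters of this motif occurred in the promoters of 3 of the 7 members, Slfn5, Slfn8 and Slfn9, in the window from 250 bases before to 50 bases after the start. They began 155 bases before the RefSeq start in Slfn5, inside the GENCODE span of that gene, and 45 bases before the start in Slfn9. Slfn8 has 2 annotated starts, and the motif lay 48 bases before the upstream one. Across 32851 mouse promoters of the same length, 3.44% held the motif. The Slfn8 and Slfn9 sequences printed above were identical at 81% of 205 aligned columns, motif included. The STAT-binding motif TTCNNNGAA, which reads the same on both strands, occurred in 8.3% of promoters and in 0 of the 7 members' windows.

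Depth and identity of the libraries were checked before the family was read. Each library had between 11163345 and 15189909 reads in genes. Hopx had 0 reads in all 9 KO libraries and reads in 10 of 11 WT libraries; it was at 0 in the library labelled WT LT-HSC replicate 4. The summed level of 9 LT-HSC marker genes ran from 8356 to 13859 normalized counts in the 7 LT-HSC libraries and from 1684 to 5951 in the 13 progenitor libraries. The 7 MPP3 markers summed to 55643 to 168952 in MPP3, but WT MPP2 replicate 3 reached 89458, inside that range. MPP2 markers overlapped between MPP2 and LT-HSC. The 9 mature neutrophil markers (S100a8, S100a9, Ltf, Ngp, Camp, Mmp8, Mmp9, Cxcr2 and Retnlg) summed to 8451 to 25517 in 5 libraries and to 58.85 to 975.6 in the other 15. Those 5 were WT LT-HSC replicate 2, KO LT-HSC replicate 1, WT MPP2 replicate 2 and WT MPP3 replicates 2 and 3.

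Levels are given as normalized counts, the reads of a gene divided by the size factor of its library. Summed over the 7 members, the family reached 2351 ± 480.8 normalized counts (SD, n = 4) in WT LT-HSC and 2666 ± 1176 (n = 3) in KO LT-HSC. The sum was 1205 ± 525.8 (n = 3) in WT MPP2, 839.7 ± 111.3 (n = 3) in KO MPP2, 1520 ± 505.2 (n = 4) in WT MPP3 and 1323 ± 253.6 (n = 3) in KO MPP3. Slfn2 took a larger part of the family in stem cells. Slfn2 made up 31.3 to 53.9% of the family's normalized counts in the WT LT-HSC libraries and 24 to 35.1% in the KO LT-HSC libraries. In the 13 progenitor libraries its share ran from 0.229 to 16.6%, below every LT-HSC library.

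Per kb of exon, the leading member differed between the populations. In LT-HSC it was Slfn2, at 648.8 ± 181.4 normalized counts per kb in WT (n = 4) and 457.2 ± 109.1 in KO (n = 3). In MPP2 it was Slfn9, at 121.9 ± 58.58 per kb in WT and 74.88 ± 20.19 in KO (n = 3 each). Slfn8 in WT MPP2 (81.94 ± 92.9) and Slfn2 in KO MPP2 (63.97 ± 21.86) were within the spread of Slfn9. In MPP3 it was Slfn8, at 153.1 ± 114.2 per kb in WT (n = 4) and 171 ± 58.59 in KO (n = 3). Slfn2 stood at 92.31 ± 19.63 per kb in WT MPP3, within the spread of Slfn8. In bulk libraries, fewer cells that express a gene and less RNA per cell cannot be told apart.

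**Figure D2:**
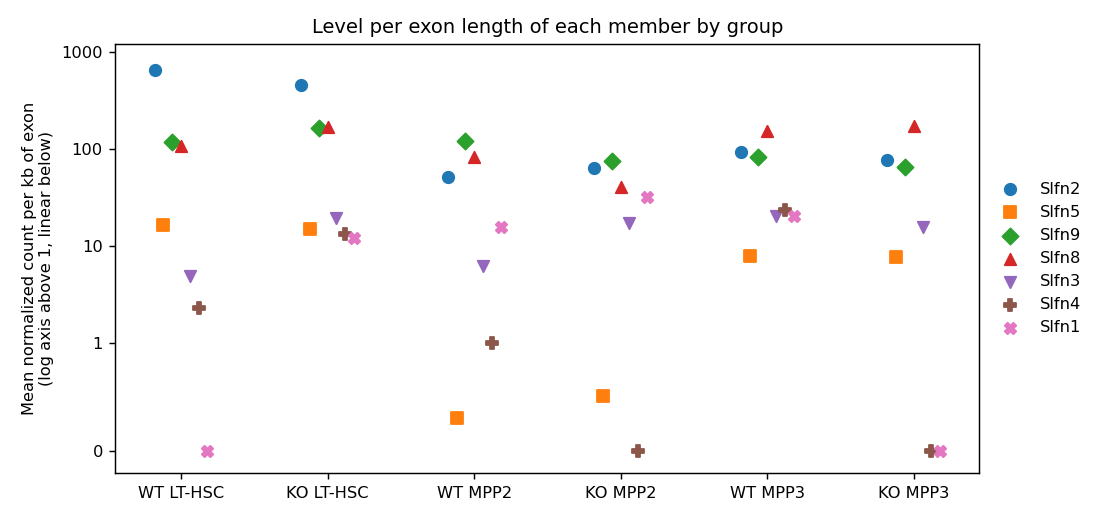
Mean normalized count per kb of exon (log axis above 1, linear below) for each of the 7 members in the 6 groups; each symbol is the mean of 3 or 4 libraries. Slfn2 stands apart at the top of both LT-HSC groups, at 648.8 and 457.2, and lies below Slfn8 and Slfn9 in WT MPP2 (51.4) and between them in the other 3 progenitor groups.

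Slfn2, a short member that is needed to keep T cells and monocytes at rest, separated stem cells from progenitors in every library. Its normalized counts in WT LT-HSC were 701.6, 997, 1216 and 1404, and in KO LT-HSC 965, 617.5 and 699.8. In WT MPP2 they were 2.623, 72.05 and 181.9, and in KO MPP2 75.25, 97.69 and 146.4. In WT MPP3 they were 119, 147, 197.8 and 150.6, and in KO MPP3 83.95, 140.7 and 160.8. The lowest of the 7 LT-HSC libraries was thus above the highest of the 13 progenitor libraries. By group mean the order ran from WT LT-HSC (1080 ± 301.8) and KO LT-HSC (760.7 ± 181.6) to WT MPP3 (153.6 ± 32.67), KO MPP3 (128.5 ± 39.86), KO MPP2 (106.4 ± 36.37) and WT MPP2 (85.53 ± 90.41). The gap in this order lay between KO LT-HSC and WT MPP3, and every other pair of neighbours overlapped.

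**Figure D3:**
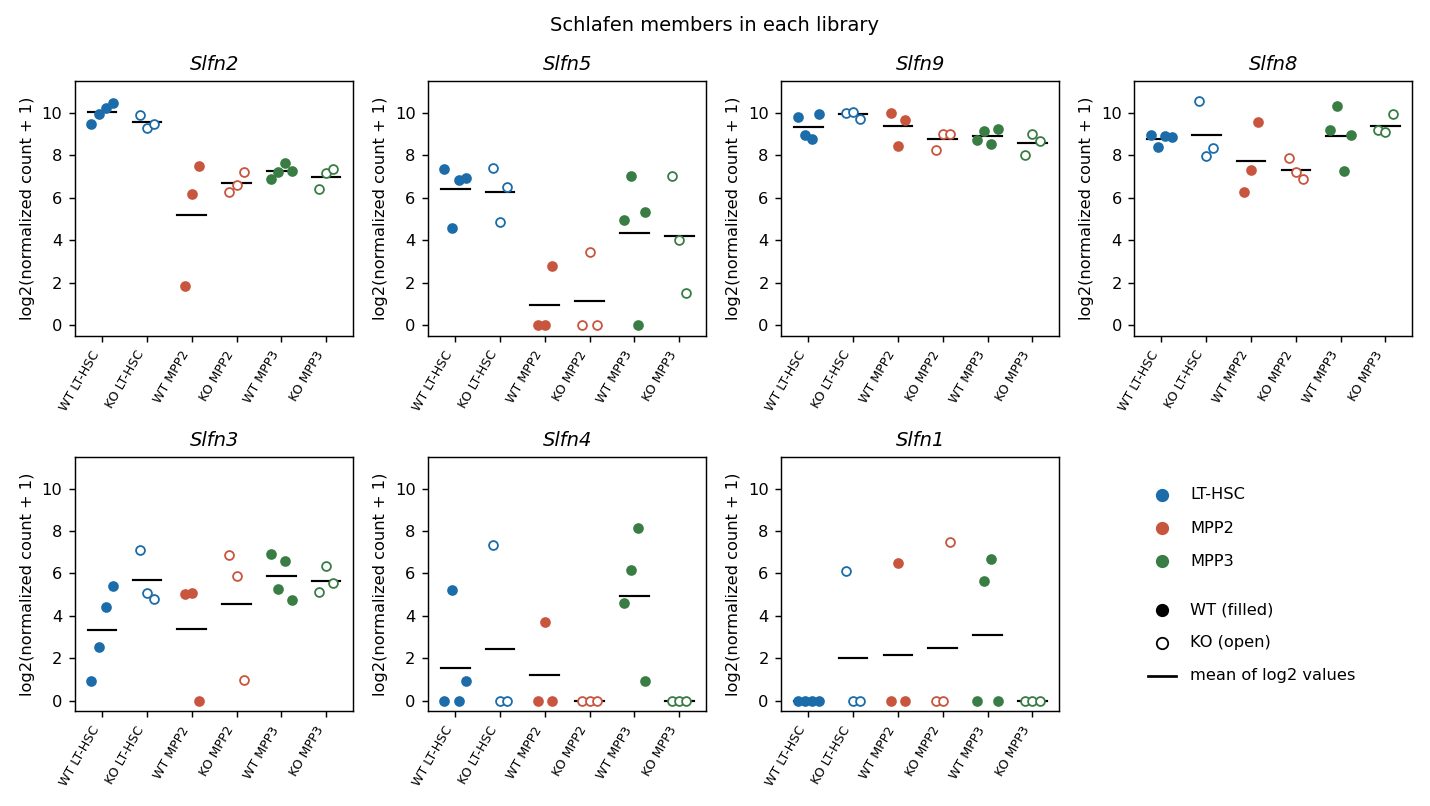
Level of each member in the 20 libraries on a log2(normalized count + 1) axis, grouped by genotype and population; filled points are WT, open points KO, and the bar is the mean of the log2 values. Slfn2 is above all progenitor libraries in all 7 LT-HSC libraries (617.5 to 1404), Slfn5 is near 0 in MPP2, and Slfn1 and Slfn4 are at 0 in most libraries.

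Fold changes are differences of mean log2(normalized count + 1), tested with limma across 17160 genes, and a gene is called at a Benjamini-Hochberg adjusted p under 0.05. Averaged over the genotypes, Slfn2 fell by 3.85 on the log2 scale from LT-HSC to MPP2 (SE 0.61, limma adjusted p = 0.00154). It fell by 2.68 from LT-HSC to MPP3 (SE 0.59, limma adjusted p = 0.00693). As a ratio of mean levels, LT-HSC exceeded MPP2 by 9.82-fold and MPP3 by 6.6-fold. In these 2 comparisons 2 of 7 members were called lower each time, against 5.08% and 4.18% of all genes called lower (7.32% and 7.4% in either direction). Within WT alone Slfn2 fell in MPP2 (log2 -4.84, SE 0.83, limma adjusted p = 0.0111), the 1 member called in a comparison where 0.833% of genes were; the call was lost with edgeR (edgeR adjusted p = 0.0517). Against WT LT-HSC, the Slfn2 difference in WT MPP3 was -2.78 (SE 0.77, limma adjusted p = 0.0513), with 0 of 7 members called and 3.97% of genes. There 1 of 7 members had an unadjusted p under 0.05, against 14.1% of all genes, so this count was near the background. EdgeR called 1 member (2.5% of genes), voom 1 (9.37%) and DESeq2 2 (5.13%).

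Within KO, Slfn2 was again lower in the progenitors, but the differences did not pass. They were -2.85 in MPP2 (SE 0.89, limma adjusted p = 0.111) and -2.58 in MPP3 (SE 0.89, limma adjusted p = 0.205), each without overlap between the libraries. No member was called in these 2 comparisons, where limma called 1.2% and 1.91% of genes. At an unadjusted p under 0.05 there were 3 and 2 members, against 17.2% and 10.6% of all genes. EdgeR called 0 members in each (0.0291% and 1.11% of genes), voom 0 and 2 (0.0408% and 4.77%), and DESeq2 2 and 4 (4.03% and 3.47%). The library with 2.623 Slfn2 counts (3 reads), WT MPP2 replicate 1, bore on the whole set of tests. Without it the WT MPP2 difference was -3.18 (limma adjusted p = 0.00212), and the KO differences passed (limma adjusted p = 0.0027 in MPP2 and 0.00228 in MPP3). So did the WT MPP3 difference (limma adjusted p = 0.000178), which also passed without WT MPP2 replicate 3 (limma adjusted p = 0.0138) or KO MPP2 replicate 3 (limma adjusted p = 0.0478).

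The Slfn2 difference was present within each range of library numbers in the labels (the labels do not say what the numbers mean). In libraries numbered 52 to 54, LT-HSC stood at 1216 and the 2 progenitors at 147 and 181.9. In those numbered 81 to 88, LT-HSC stood at 1404 and the 4 progenitors at 146.4 to 197.8. In those numbered 101 to 106, the 3 LT-HSC libraries ran from 617.5 to 965 and the 3 progenitors from 2.623 to 83.95. In those numbered 115 to 120, the 2 LT-HSC libraries stood at 699.8 and 997 and the 4 progenitors at 72.05 to 140.7. Without the 5 libraries with high neutrophil markers, the MPP2 difference was -4.02 (limma adjusted p = 0.0236) and that in MPP3 -2.69 (limma adjusted p = 0.0798), so the second call was lost at a like size.

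The Slfn2 difference between MPP2 and MPP3 did not pass with all libraries. It was -1.17 on average (SE 0.61, limma adjusted p = 0.298), -2.06 in WT (SE 0.83, limma adjusted p = 0.395) and -0.27 in KO (SE 0.89, limma adjusted p = 0.919). The result turned on single WT MPP2 libraries in both directions. Without WT MPP2 replicate 1 the WT difference was -0.40 (limma adjusted p = 0.964) and the average -0.33 (limma adjusted p = 0.618). Without WT MPP2 replicate 3, the library with MPP3 markers in the MPP3 range, both were called: -3.23 in WT (limma adjusted p = 0.0331) and -1.75 on average (limma adjusted p = 0.0449). Limma called 0 of 7 members in each of these 3 comparisons, against 6.88%, 0.431% and 2.79% of all genes. At an unadjusted p under 0.05 there were 2, 2 and 1 members, against 20.5%, 9.57% and 17.5% of all genes, so the KO count was near the background. EdgeR called 0 members in each (4.32%, 0.286% and 1.15% of genes), voom 1, 0 and 0 (7.73%, 0.804% and 1.53%), and DESeq2 3, 0 and 1 (9.09%, 1.61% and 5.16%).

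Slfn1, the founding short member, known for slowing the growth of T cells, was read in 5 of 20 libraries. It was at 0 in all 4 WT LT-HSC and all 3 KO MPP3 libraries. It stood at 67.53 in KO LT-HSC replicate 1, 88.06 in WT MPP2 replicate 2, 177.8 in KO MPP2 replicate 3, and 49 and 102.5 in WT MPP3 replicates 2 and 3. Each of the 4 groups with reads also held libraries at 0, so the levels followed single libraries and not a population or a genotype. These values rested on 39 to 181 reads each, and 0 reads in a library allows up to 3 counts.

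Slfn4, an intermediate member known from macrophages and other myeloid cells, had more than 1 read in 6 of 20 libraries. In WT MPP3 it stood at 23.2, 70.36, 278 and 0.9017, and in KO MPP3 at 0 in all 3 libraries. In WT LT-HSC it stood at 0, 36.08, 0 and 0.8923, and in KO LT-HSC at 159, 0 and 0. In WT MPP2 it stood at 0, 12.01 and 0, and in KO MPP2 at 0 in all 3 libraries. The 4 WT MPP3 libraries were above the 3 KO MPP3 libraries, by a margin of 1 read in WT MPP3 replicate 4.

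**Figure D4:**
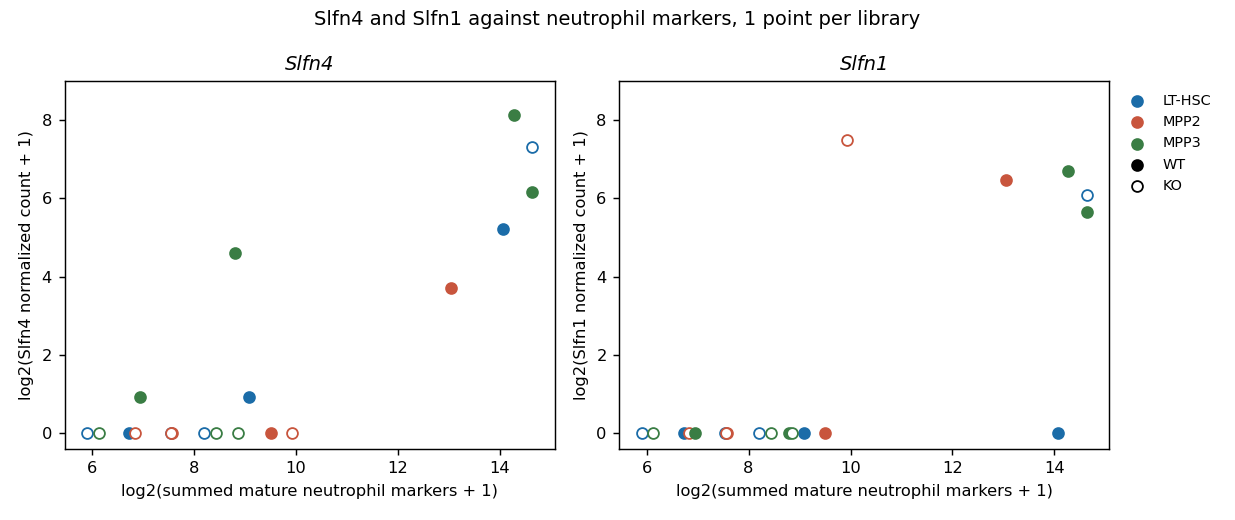
Slfn4 (left) and Slfn1 (right) against the summed level of 9 mature neutrophil markers, both on a log2(normalized count + 1) axis, with 1 point per library (filled WT, open KO). The 5 libraries with marker sums of 8451 to 25517 hold 5 of the 6 libraries with more than 1 Slfn4 read, and 4 of the 5 with Slfn1.

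Slfn4, and less closely Slfn1, moved with the neutrophil markers. The 5 libraries with high marker sums held 564 of the 589 Slfn4 reads of the data set (95.8%), and Slfn4 was between 12.01 and 278 in all 5. They held 304 of 485 Slfn1 reads (62.7%), with WT LT-HSC replicate 2 at 0. In the other 15 libraries Slfn4 did not exceed 23.2, and Slfn1 was read in 1, KO MPP2 replicate 3. That library had the highest marker sum of those 15 (975.6) and the highest Slfn1 value of all 20 (177.8). For comparison, the same 5 libraries held 27.6% of Slfn2 reads, 31.3% of Slfn8 reads and 20.6% of Slfn9 reads. B-cell markers were also highest in the libraries with most Slfn4. They summed to 3115 in WT MPP3 replicate 3 and 2137 in KO LT-HSC replicate 1. In WT MPP2 replicate 2, WT LT-HSC replicate 2 and WT MPP3 replicate 2 they summed to 328.2, 736.9 and 1244. The libraries with high neutrophil markers were 4 WT and 1 KO, and the part of either set of markers in the Slfn4 and Slfn1 levels was not tested.

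Slfn3, the other intermediate member, known from T cells and from maturing gut epithelium, was read at low level in 19 of 20 libraries. Its mean ran from 16.72 ± 18.23 normalized counts in WT LT-HSC (n = 4) to 69.3 ± 44.39 in WT MPP3 (n = 4). Single libraries ran from 0.9159 to 136.1 in LT-HSC, 0 to 116.2 in MPP2 and 26.15 to 118 in MPP3. The groups overlapped in every comparison made here; WT MPP2 (0 to 33.02) and KO MPP3 (33.58 to 80.26), which were not compared, did not overlap. No Slfn3 difference had an unadjusted p under 0.05.

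Slfn5, a long member known as a nuclear regulator of transcription in the interferon response, was present in stem cells and near 0 in MPP2. In WT LT-HSC it stood at 161.2, 22.79, 114.6 and 122.2, and in KO LT-HSC at 167.7, 28.11 and 89.86. In WT MPP2 it stood at 0, 0 and 5.907, and in KO MPP2 at 0, 9.769 and 0. All 7 LT-HSC libraries were above all 6 MPP2 libraries, with 730 against 16 reads. Averaged over the genotypes Slfn5 fell by 5.31 on the log2 scale (SE 1.12, limma adjusted p = 0.00956), and the ratio of mean levels was 38.6-fold. With a pseudocount of 16 in place of 1 the difference was -2.46 (limma adjusted p = 0.00906). Within WT (-5.50, SE 1.53, limma adjusted p = 0.103) and within KO (-5.11, SE 1.63, limma adjusted p = 0.121) it did not pass; without WT MPP3 replicate 3 the WT difference did (limma adjusted p = 0.0438).

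In MPP3, Slfn5 was scattered. It stood at 30.26, 128.2, 0 and 39.68 in WT and at 130.1, 15.11 and 1.817 in KO, so that MPP3 libraries reached both the stem-cell level and 0. The difference between MPP2 and MPP3 was -3.22 on average (SE 1.12, limma adjusted p = 0.0998) and -3.40 in WT (SE 1.53, limma adjusted p = 0.477). Without WT MPP3 replicate 3, the WT MPP3 library at 0, the average was -3.94 and was called (limma adjusted p = 0.0196). Reads of Slfn5os, the overlapping gene on the opposite strand, followed a like order, with means of 9.094 in LT-HSC, 1.597 in MPP3 and 0.1969 in MPP2. The sources used here do not say if counting used the strand. How reads in the exon bases shared by the pair (559 of 6326 in Slfn5) were assigned is therefore not known. The deposited table keeps ambiguous reads apart from the genes, at 0.2742 to 0.3406% of its entries.

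Slfn9, a long member of little-known function, was read in all 20 libraries, between 260.2 and 1054. It stood at 885.6, 489, 428.7 and 992.3 in WT LT-HSC and at 1019, 1054 and 850.4 in KO LT-HSC. It stood at 1035, 347.2 and 798.6 in WT MPP2 and at 307.7, 520.4 and 511.9 in KO MPP2. In WT MPP3 it stood at 423.6, 571.7, 364.4 and 600.5, and in KO MPP3 at 260.2, 512.7 and 405.2. The KO LT-HSC libraries were above all 6 KO progenitor libraries, whereas the WT populations overlapped.

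Averaged over the genotypes Slfn9 fell by 0.90 on the log2 scale from LT-HSC to MPP3 (SE 0.27, limma adjusted p = 0.0473), a ratio of mean levels of 1.82. That call held in 13 of 33 other settings, with adjusted p from 0.0112 to 0.144, and it was lost without 13 of the 20 libraries when each was left out alone. Within KO the differences were -1.36 in MPP3 (SE 0.40, limma adjusted p = 0.114) and -1.16 in MPP2 (SE 0.40, limma adjusted p = 0.158).

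Slfn8, the close relative of Slfn9 with a like promoter, showed another pattern, with its lowest mean in MPP2. It stood at 75.18, 159.1 and 771.4 in WT MPP2 and at 231.5, 149.2 and 115.9 in KO MPP2. In WT MPP3 it stood at 583, 1269, 153.2 and 499.6, and in KO MPP3 at 576.1, 546.7 and 975.8. In WT LT-HSC it stood at 494.6, 332.3, 476.4 and 464, and in KO LT-HSC at 1510, 246.8 and 327.7. Of the 6 MPP2 libraries 5 were below all 7 LT-HSC libraries, and the exception, WT MPP2 replicate 3, is the library with MPP3 markers in the MPP3 range. WT MPP2 replicate 1, with the next highest MPP3 marker sum of the MPP2 libraries (38974), had the lowest Slfn8 value (75.18). The part of the markers in the Slfn8 level was not tested.

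The Slfn8 difference between MPP2 and MPP3 was -1.65 on average (SE 0.54, limma adjusted p = 0.079) and -2.08 in KO (SE 0.79, limma adjusted p = 0.174). Without WT MPP2 replicate 3 the average difference was -2.11 and was called (limma adjusted p = 0.0113), as it was without WT MPP3 replicate 3 (-1.92, limma adjusted p = 0.0295). Between MPP2 and LT-HSC the average difference was -1.34 (SE 0.54, limma adjusted p = 0.145), and without that library it was -1.81 and was called (limma adjusted p = 0.0284).

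The relatives outside the 7 members were lower or scattered. Slfn10-ps was read in 19 of 20 libraries, with a mean of 224.8 ± 115.8 (n = 20), and was at 0, 312.6 and 1.965 in KO MPP2. Slfn14, known from platelets and red-cell precursors, was read in 3 libraries, with 16 reads in WT LT-HSC replicate 2, 33 in WT LT-HSC replicate 4 and 1 in KO MPP3 replicate 1. Slfnl1, a Schlafen-like gene on chromosome 4, was read in 3 libraries, with 36 of its 38 reads in KO MPP2 replicate 1. The filter on low values removed Slfn14 and Slfnl1.

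Loss of Hopx was set against the wild type within each population. Sex, which was read from expression, was not balanced between the genotypes. Females numbered 1 of 4 in WT LT-HSC, 1 of 3 in WT MPP2 and 1 of 4 in WT MPP3. In KO LT-HSC, KO MPP2 and KO MPP3 alike, females numbered 2 of 3. Genotype and sex were therefore partly mixed in these comparisons. Limma called 0 of 7 members in LT-HSC (smallest limma adjusted p = 1), 0 in MPP2 (0.725), 0 in MPP3 (1) and 0 on the average of the populations (0.857). The background was low as well: 0.00583%, 0.0117%, 0.00583% and 0.0117% of all genes were called. The interaction test, which asks if the populations respond unequally to the knockout, called 0 members and 0% of genes (smallest limma adjusted p of a member = 1). EdgeR and voom called 0 members in these 5 comparisons and at most 0.00583% of genes in any of them. For Slfn2 the KO minus WT difference was -0.48 in LT-HSC (SE 0.83), 1.51 in MPP2 (SE 0.89), -0.28 in MPP3 (SE 0.83) and 0.25 on average (SE 0.49). The MPP2 value rested on WT MPP2 replicate 1, without which it was -0.16. A difference larger than its error was still not called: in MPP2, with all libraries, it was 1.51 with SE 0.89 (limma adjusted p = 0.725). Changes of Slfn2 of that size or smaller could thus be missed in that comparison.

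The 1 member with an unadjusted p under 0.05 in a KO comparison was Slfn4 in MPP3 (log2 -4.95, SE 1.82, limma adjusted p = 1), where 2.02% of all genes had one. With 392 reads in WT MPP3, 0 in KO MPP3 and 3 counts over that group as the floor, the mean level was at least 96.2-fold lower in KO; the bound covers counting error only. WT MPP3 replicate 3 held 312 of the 392 reads, and without it the bound was at least 32.5-fold and the log2 difference -3.89 (limma adjusted p = 1). Without the 5 libraries with high neutrophil markers the difference was -2.76 (limma adjusted p = 1). DESeq2 called Slfn4 in MPP2, MPP3 and on average, and Slfn1 in LT-HSC and MPP3. Over all genes DESeq2 called 0.122% in LT-HSC, 0.653% in MPP2, 0.128% in MPP3, 0.315% on average and 0.0466% in the interaction test, where it called 0 members. In each of those comparisons of Slfn1 and Slfn4 at least 1 group was at 0 in every library. The library labelled WT LT-HSC replicate 4, which had no Hopx read, is part of the WT group in these comparisons and held the highest Slfn2 value (1404). Without it, limma again called 0 members in the KO comparisons.

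As a whole family, the members had no single direction between KO and WT. In LT-HSC, MPP2, MPP3 and on average, 2, 3, 6 and 4 of 7 were lower in KO. The median log2 difference of the 7 members between KO and WT was 0.57 in LT-HSC, 0.21 in MPP2, -0.28 in MPP3 and -0.04 on average. Leaving out 1 library turned the sign of all but the MPP3 value. The LT-HSC median was -0.62 without KO LT-HSC replicate 1 and -0.31 without the 5 libraries with high neutrophil markers. The MPP2 median was -0.46 without WT MPP2 replicate 3, and the average median was 0.27 without the same library. Between MPP2 and LT-HSC the median was -0.30 in WT, -1.64 in KO and -1.34 on average, with 4, 6 and 6 of 7 members lower in MPP2. Without single libraries these medians stayed negative, at -0.85 to -0.13, -2.23 to -0.84 and -1.60 to -0.56. In the other settings that kept all 7 members they ran from -0.98 to -0.08, -2.07 to -0.84 and -1.38 to -0.66. Between MPP3 and LT-HSC the median was 0.16, -2.03 and 0.30, with 3, 6 and 3 of 7 lower in MPP3. The WT value was -0.30 without WT MPP3 replicate 2, the KO value 0.00 without KO LT-HSC replicate 1, and the average -0.91 with DESeq2. Between MPP2 and MPP3 the median was -2.06, -0.27 and -1.65, with 6, 4 and 5 of 7 lower in MPP2. The WT value was -0.48 without WT MPP2 replicate 1, and the KO value 0.00 without KO MPP2 replicate 3. Over all 17160 genes the medians of these comparisons lay between -0.15 and 0.0322. Comparisons that share a population share its libraries, so these medians are not independent of each other.

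Genes whose pattern was most like that of a member were sought among 12040 genes by Pearson correlation of log2 values over the 20 libraries, which share their populations. Slfn2 was most like Trib3, a stress-induced pseudokinase (r = 0.88), the lysosomal protease Ctsf (0.86) and the blood-group gene Art4 (0.85). Slfn5 was most like Usp53 (0.85), Ccdc149 (0.82) and Procr, the surface receptor EPCR used as a stem-cell marker (0.82). Slfn8 was most like Xaf1, an interferon-induced gene (0.86), Mrgpre (0.83) and Sytl1 (0.83). Slfn4 was most like the neutrophil genes S100a9 (0.85) and S100a8 (0.80), and S100a9 was also the gene most like Slfn1 (0.77). Slfn9 was most like the kinase Stk24 (0.76) and Slfn3 most like Wdr53 (0.78).

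Among the members themselves, 21 pairs had correlations from -0.29 to 0.67 with a median of 0.06. With group means removed the range was -0.37 to 0.68 and the median 0.01. Slfn5 and Slfn8 (r = 0.67, and 0.57 within groups) and Slfn1 and Slfn4 (0.63 and 0.68) varied together also within groups. Slfn2 and Slfn5 (0.63) did so only between groups (0.07). Over 20 libraries these values are descriptions.

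The genes through which interferon acts were taken as the pathway around the family. Of 14 receptors and signal carriers, all tested, 1 was higher and 3 were lower in MPP2 than in LT-HSC on average, against 2.24% and 5.08% of all genes. Lower were the transcription factors Irf1 (log2 -1.17, SE 0.32, limma adjusted p = 0.0361) and Irf9 (-0.69, SE 0.19, limma adjusted p = 0.038) and the signal carrier Stat2 (-1.09, SE 0.32, limma adjusted p = 0.0449). Irf8, a factor of the monocyte and dendritic lineage, was higher (2.96, SE 0.87, limma adjusted p = 0.0459). In MPP3, where 3.22% of all genes were higher and 4.18% lower, Irf8 (6.12) and the receptor subunit Ifnar2 (1.10) were higher than in LT-HSC, and the kinase Jak2 was lower (limma adjusted p = 0.00202). Between MPP2 and MPP3, 5 of 14 were lower in MPP2, against 4.64% of all genes lower and 2.24% higher: Ifnar2, Irf7, Irf1, Irf8 and Irf9.

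Of 16 interferon-response genes, all tested, 3 were lower in MPP2 than in LT-HSC on average (5.08% of all genes) and 0 higher. These were the antiviral membrane protein gene Ifitm3 (log2 -0.90), Oasl2 (-1.61) and the antiviral GTPase Mx2 (-3.76). Ifitm3 was also the 1 gene of the list that was lower in MPP3 (-0.73), and Bst2 the 1 that was lower in MPP2 than in MPP3 (-0.68). Each of these last counts, 1 of 16, was near the share of all genes called lower (4.18% and 4.64%). The list's median difference was -0.66 for MPP2 and 0.04 for MPP3 against LT-HSC.

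Quiescence genes of stem cells were in part lower in the progenitors as well. Of 20 tested, 7 were lower and 0 higher in MPP2 on average, against 5.08% and 2.24% of all genes, led by the cell-cycle inhibitor Cdkn1c (log2 -2.71, SE 0.47, limma adjusted p = 0.00265) and the metabolic regulator Txnip (-1.36, SE 0.27, limma adjusted p = 0.00602). In MPP3, where 4.18% of all genes were lower and 3.22% higher, 4 were lower, among them Cdkn1c (-3.39) and the growth suppressor Ndn (-4.29), and Cdkn1a, another cell-cycle inhibitor, was higher (1.76). Of 21 G1 cyclin and proliferation genes, 6 were higher and 1 lower in MPP2, against the same 2.24% and 5.08% of all genes. The kinase Cdk6 (0.77), the topoisomerase Top2a (1.41) and the proliferation marker Mki67 (1.17) were higher, and the cyclin Ccnd2 was lower (-0.59). In MPP3, 4 were higher (3.22% of all genes), with Cdk6 (0.84) and Myc (0.82) among them, and Ccnd2 was again lower (-0.62). Within single genotypes, MPP2 against LT-HSC gave fewer calls (0.833% of all genes in WT and 1.2% in KO). There 0 genes of both interferon lists were called in either genotype. Of the quiescence genes, 1 was lower in WT and 0 in KO. Of the proliferation genes, 1 was higher and 1 lower in WT, and 1 was higher in KO. In the comparisons of KO with WT, 0 genes of these 4 lists were called by limma.

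The genes beside the cluster were read to see whether the differences extended past it. Of the 5 nearest protein-coding genes on each side, 8 of 10 were tested, and 1, Unc45b, was called in any comparison, so 1 of 8 stands beside 7.32% and 7.4% of all genes in the average comparisons of MPP2 and MPP3. Unc45b, a chaperone of myosin on the Slfn5 side of the cluster, was lower on average in MPP2 (log2 -6.09, SE 0.90, limma adjusted p = 0.00101) and in MPP3 (-4.57, SE 0.87, limma adjusted p = 0.00233). Its mean fell from 127.3 normalized counts in LT-HSC to 2.56 in MPP2 and 7.711 in MPP3. Unc45b shares exon sequence with Slfn5os on the opposite strand, and how reads in that shared sequence were assigned is not known either.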

How the data were processed

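Per the submitters' processing notes, the authors used TopHat2 2.1.1, HTSeq 0.11.2, DESeq and the build GRCm38; annotation release, strand setting and DESeq version are unstated in these notes. The authors deposited a normalized signal, in which a gene's count is divided by the size factor of its library. All values (100%) were whole multiples of the value of 1 read within 1e-06, and whole reads were recovered. The deposited table's 5 summary entries were left out; alignments that were not unique made up 52.6 to 57.79% of its entries.

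Values were tested as log2(value + 1) with limma 3.58.1 (trend, robust) in R 4.3.3, fitting 6 group means to the 20 libraries. The filterByExpr function of edgeR kept 17160 genes. EdgeR 4.0.16 and DESeq2 1.42.0 on recovered reads were alternatives. Replicate numbers follow accession order and pair nothing. Named were all members and relatives, from each list the called genes of smallest p, the 3 genes most like a member, and marker genes. Members and lists were chosen with earlier results of these data known. The scripts were tested on simulated data. Symbols matched 45143 of 45706 identifiers in GENCODE M21. Intervals and floors cover counting error only.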

Additional observations from a re-analysis of the deposited data

Results flagged for a closer look

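Of 13 sets of 4 WT libraries with reads of a member, 1 held a library that stood out by Dixon's test at the 95% level. Chance flags about 1 in 20. Slfn4 stood at 36.08 normalized counts in WT LT-HSC replicate 2, against 0, 0 and 0.8923 in the other 3 WT LT-HSC libraries. That library had a mature neutrophil marker sum of 17189, against 105.3 to 543.4 in the rest of its group; the part of the markers in this value was not tested.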

How the results depend on the processing

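Between LT-HSC and MPP2, averaged over the genotypes, Slfn2 was called lower in all 33 alternative settings and Slfn5 in 31 of 32; the exception was edgeR on 18 libraries (adjusted p = 0.126). The Slfn2 call in MPP3 held in 32 of 33, and the Slfn2 call in WT MPP2 in 30 of 33, lost with edgeR (adjusted p = 0.0517), edgeR on 18 libraries (0.219) and without the 5 libraries with high neutrophil markers (0.0848). The causes of the lost calls were not tested, and settings with fewer libraries have fewer degrees of freedom. The 18-library edgeR fit and the fit without the 5 libraries were chosen after seeing the data. The 18-library fit left out WT MPP3 replicate 1 and WT MPP2 replicate 2. In these 1 read was worth almost 1 (1.00868 and 1.00071), so a separate check of whole reads could not judge them. That fit thus held fewer WT MPP2 and WT MPP3 libraries.

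Counts of called members against LT-HSC changed as follows. In WT MPP2 the count of 1 became 0 with edgeR, edgeR on 18 libraries and without the 5 libraries. It became 2 with library number range as a covariate and 3 with DESeq2, and ran from 1 to 2 when single libraries were left out. Of all 17160 genes, these settings called 35, 0, 27, 364 and 420 in that order, against 143 in the main fit. In WT MPP3 the count of 0 became 1 with a pseudocount of 16, edgeR, voom and the library number range, and 2 with DESeq2 (0 to 1 without single libraries). All genes called numbered 886, 429, 1608, 758 and 881 in that order, against 681 in the main fit. In KO MPP2 the count of 0 became 1 with a pseudocount of 16 and the library number range and 2 with DESeq2. All genes called there numbered 230, 363 and 691, against 206 in the main fit. In KO MPP3 the count of 0 became 1 with a pseudocount of 16, 2 with voom and 4 with DESeq2 (0 to 1 without single libraries in both). All genes called there numbered 461, 819 and 595, against 327. On average over the genotypes the count of 2 in MPP2 became 1 with the stricter filter, which removed Slfn5, and with edgeR on 18 libraries. It became 3 without the libraries numbered 52 to 54, where Slfn8 was also called, and 4 with DESeq2 (2 to 3 without single libraries). All genes called numbered 898 (of 12077 tested), 276, 1273 and 1805 in that order, against 1256 in the main fit. In MPP3 the count of 2 became 3 with DESeq2, 1 with a pseudocount of 0.25, no filter, the stricter filter, edgeR on 18 libraries, the library number range and the sex covariate, and 0 without the 5 libraries (1 to 2 without single libraries). All genes called numbered 1544, 1195, 1101 (of 30143 tested), 794 (of 12077), 833, 1235, 1304 and 928 in that order, against 1270 in the main fit.

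Between MPP2 and MPP3 the count of 0 stayed 0 in WT except without single libraries (0 to 1). In KO it became 1 with DESeq2, which called 885 of all genes there, against 478 in the main fit. On average it became 1 with voom, the sex covariate and without the libraries numbered 52 to 54, 2 with the library number range and 3 with DESeq2 (0 to 2 without single libraries). All genes called on average numbered 1326, 1264, 1223, 1437 and 1560 in that order, against 1180. Between KO and WT DESeq2 alone gave calls of members: 1 in LT-HSC, 1 in MPP2, 2 in MPP3 and 1 on average. It called 21, 112, 22 and 54 of all genes there.

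The Slfn2 difference between KO and WT had no stable sign. With library number range as a covariate it was 0.35 in LT-HSC and 0.42 in MPP3. On average over the populations it was -0.14 with edgeR, -0.20 with edgeR on 18 libraries, and -0.15 with DESeq2, and it ran from -0.31 (without WT MPP2 replicate 1) to 0.63 when single libraries were left out. In MPP2 it ran from -0.16 (without the same library) to 2.67. In the average comparisons edgeR on recovered reads called 773 (MPP2 against LT-HSC), 1021 (MPP3 against LT-HSC) and 741 (MPP2 against MPP3) genes, or 276, 833 and 366 on 18 libraries, against 1256, 1270 and 1180 with limma. Voom called 2482 in the second of these, and without the 5 libraries limma called 428, 928 and 336. In MPP2, Slfn1, Slfn4 and Slfn5 were at 0 in 4, 5 and 4 of 6 libraries, and the part of depth in this was not tested. No paired analysis by replicate number was possible because these numbers follow accession order and the labels name no animal; a block by range of library numbers, whose meaning the labels do not give, could be fitted, and is the library number range covariate above.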
